A study of Rattus norvegicus with 9 samples.

Results

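Mature miRNAs known for their enrichment in neurons were followed by small RNA sequencing of rat retina. The members were chosen by name: every row of the deposited tables named miR-124, miR-128, miR-129, miR-138, miR-137, miR-7a, miR-7b or miR-488, whichever arm or gene copy, which gave 16 of 465 mature miRNAs (rno-miR-124-3p, rno-miR-124-5p, rno-miR-7b and so on, written here without the species prefix rno-). The retinas were dissected from wild-type Sprague Dawley rats, with 3 libraries in each of 3 groups, which were oxygen-induced retinopathy at postnatal day 29 (OIR P29), the same model at postnatal day 14 (OIR P14), and sham controls of postnatal day 14 (sham P14). In the retinopathy model, newborn rats are kept under altered oxygen so that retinal vessels first stop growing and later grow abnormally. The sources used here state neither the oxygen that each group received, sham animals included, nor how many animals went into a library. A sham group at postnatal day 29 was not analysed here, so age and stage of the retinopathy cannot be told apart between OIR P29 and OIR P14.

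A miRNA gene is transcribed into a hairpin whose stem is cut out, and each of its arms, named 5p and 3p after the ends of the hairpin, can be kept as a mature miRNA. The kept arm guides the silencing complex to messenger RNAs through its seed, the bases at positions 2 to 8. miR-124 is the best known miRNA of neurons, including retinal neurons, where it represses transcripts of non-neuronal cells. In mice its loss harms cone photoreceptors. miR-128 restrains neuronal excitability in mice, miR-138 limits the size of dendritic spines in rat hippocampal neurons, and miR-7 is bound by the circular RNA Cdr1as in mammalian brain.

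The sequences that matter for the comparisons are those of gene copies that share a seed or a whole arm. RefSeq sequences of the rat build GRCr8 matched 14 of the 16 members by name, with 12 distinct seeds among them. Not matched were miR-124-3p and miR-124-5p. The mature sequences of the miR-7 and miR-129 families and of the main arms of the other matched genes are given 5′ to 3′ with the seed in capitals.
miR-7a-5p: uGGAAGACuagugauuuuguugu
miR-7b: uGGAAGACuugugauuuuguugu
miR-7a-1-3p: aCAACAAAucacagucugccau
miR-7a-2-3p: cAACAAGUcccagucugccaca
miR-129-5p: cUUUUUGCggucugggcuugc
miR-129-1-3p: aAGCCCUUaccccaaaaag
miR-129-2-3p: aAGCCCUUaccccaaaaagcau
miR-488-3p: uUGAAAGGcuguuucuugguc
miR-137-3p: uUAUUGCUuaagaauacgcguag
miR-128-3p: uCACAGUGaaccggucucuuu
miR-138-5p: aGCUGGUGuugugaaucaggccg

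miR-7a-5p and miR-7b share their seed and differ by 1 base, A10U, with positions counted from the 5′ end and the base of miR-7a-5p first. miR-7a-5p is cut from gene copies at chr1:142215818-142215840 and chr17:6278710-6278732, both on the plus strand. The copy on chromosome 17 lies within the span of the protein-coding gene Hnrnpk, and that on chromosome 1 within a long noncoding RNA gene. The 3p arms differ between the copies, so miR-7a-1-3p marks the chromosome 17 copy and miR-7a-2-3p the chromosome 1 copy. miR-7b lies at chr9:1167464-1167486 on the plus strand. Mir488 lies within the span of Astn1, a gene of migrating neurons, Mir128-1 within R3hdm1 and Mir128-2 within Arpp21. miR-128-3p and miR-138-5p each come from copies on different chromosomes with the same mature sequence, so their counts sum those copies.

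The hairpins of miR-129 show which bases its 3p names share. They are given 5′ to 3′ with both mature arms in capitals, Mir129-1 at chr4:58589711-58589782 on the plus strand and Mir129-2 at chr3:100657390-100657486 on the minus strand.
Mir129-1: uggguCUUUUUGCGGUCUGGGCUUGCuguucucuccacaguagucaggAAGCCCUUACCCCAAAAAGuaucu
Mir129-2: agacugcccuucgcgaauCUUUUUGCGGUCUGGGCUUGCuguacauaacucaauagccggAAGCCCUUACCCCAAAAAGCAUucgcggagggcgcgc

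The 5p arm is the same in both hairpins. The 19 bases of miR-129-1-3p are the first 19 of the 22 bases of miR-129-2-3p. The hairpins differ in the bases that follow, and how longer reads were assigned is not stated. The counts of these 3p names were identical in 6 of 9 libraries and differed by at most 2 counts in the others, so they hold nearly the same reads and are described once, as miR-129-3p, with the counts of miR-129-2-3p.

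Library totals over the 465 miRNAs were 13088233 to 13973950 counts in OIR P29, 12694068 to 15260603 in OIR P14 and 11808893 to 12568341 in sham P14. miR-182, a photoreceptor miRNA and a marker of the labelled tissue, took 59.3% to 68.1% of a library. The members together held 0.768% to 0.932% of the counts in OIR P29, 0.448% to 0.738% in OIR P14 and 0.537% to 0.731% in sham P14. Of the counts of the members, miR-124-3p alone made up 83.1% to 86.5% in any library. These sums include both names of miR-129-3p, and so count nearly the same reads more than once. This raises the members' share of a library and lowers that of miR-124-3p among the members. Levels are given as CPM, the count as a rate per library total, scaled with edgeR's TMM factors over all 9 libraries, as mean ± SD of 3 libraries, and raw counts are given per library in the order of the library codes of the deposited tables (20, 21 and 47 for OIR P29, 11, 12 and 38 for OIR P14, 25, 27 and 51 for sham P14). Whether a level differs was tested with edgeR's quasi-likelihood test on the 6 libraries of each comparison, with Benjamini-Hochberg adjustment over all miRNAs tested and a threshold of 0.05.

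Members spanned a wide range of abundance, shown in the plot of levels by library. In sham P14 miR-124-3p was the 17th most abundant of all miRNAs at 5139 ± 762 CPM. It was followed by miR-138-5p at 165.0 ± 17.6 CPM, miR-129-5p at 157 ± 20.02 CPM and miR-129-3p at 132 ± 40.1 CPM, whose library ranges overlapped from one to the next. miR-488-3p (124.5 ± 12.4 CPM) overlapped with miR-129-3p, and miR-124-5p (91.2 ± 10.3 CPM) with miR-128-3p (83.8 ± 4.70 CPM). miR-7a-5p (30.9 ± 2.86 CPM) and miR-7a-1-3p (21.3 ± 2.38 CPM) stood apart from their neighbours. Below 10 CPM were miR-7a-2-3p (6.82 ± 0.300 CPM), miR-137-3p (3.36 ± 1.29 CPM), miR-128-1-5p (2.50 ± 0.605 CPM), miR-7b (1.67 ± 0.866 CPM), miR-138-1-3p (0.555 ± 0.336 CPM) and miR-488-5p (0.382 ± 0.0710 CPM). The order differed in OIR P29, where miR-129-3p (284 ± 22.0 CPM) and miR-129-5p (248 ± 8.92 CPM) stood above miR-138-5p (165 ± 14.3 CPM) with no overlap. A level in CPM counts reads and not molecules, because small RNA ligation favours some sequences.

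**Figure D1:**
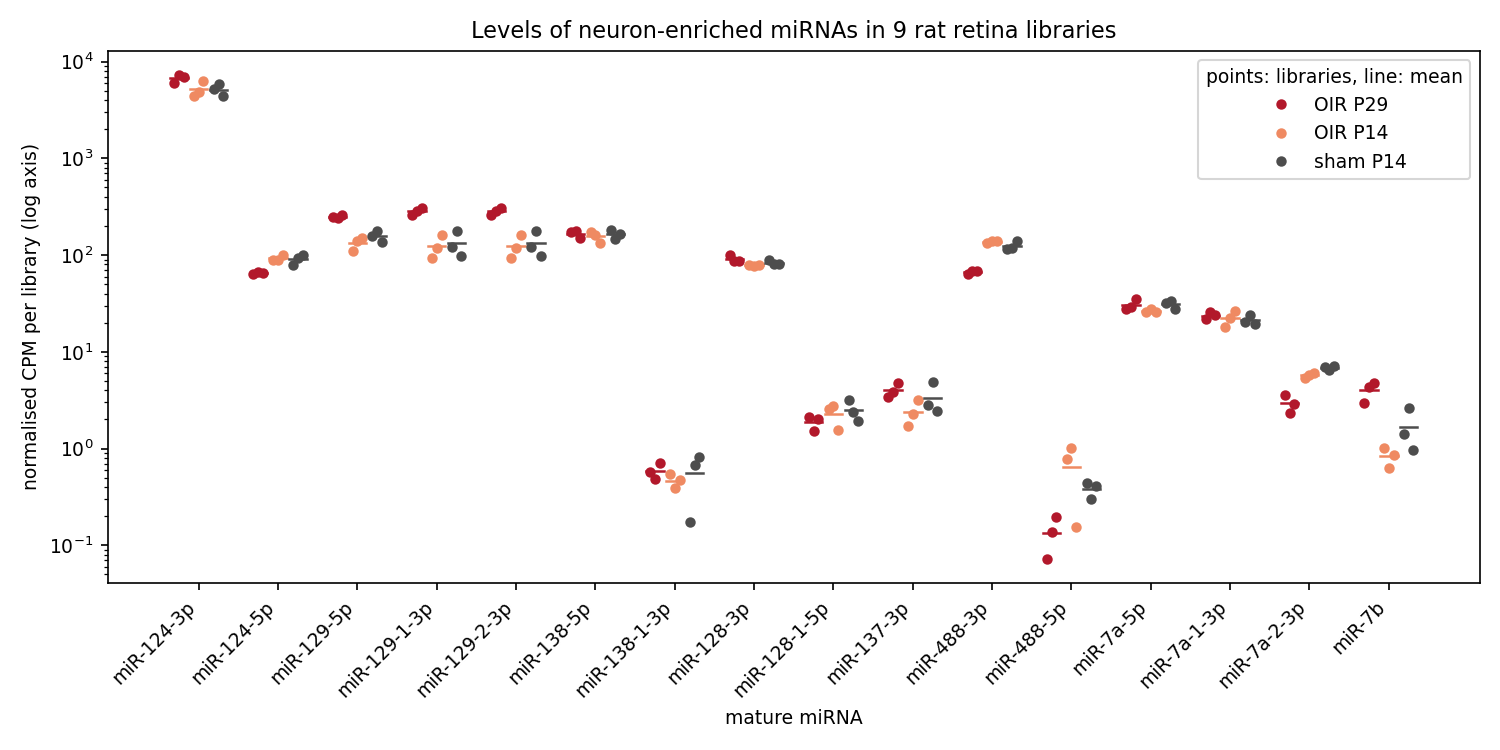
Normalised CPM of the 16 members in each of the 9 libraries on a log axis, with points for libraries and lines for the means of OIR P29, OIR P14 and sham P14. miR-124-3p lies far above the other members, and the OIR P29 points of miR-129-5p, miR-129-3p and miR-7b stand above those of both groups at P14 while those of miR-488-3p, miR-124-5p and miR-7a-2-3p stand below.

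OIR P29 was compared with OIR P14 to follow the retinopathy retina to a later age. miR-7b, miR-129-5p, miR-129-3p and miR-137-3p rose, and miR-488-3p, miR-7a-2-3p and miR-124-5p fell. Of the 16 members 14 passed the filter on low counts, and 8 of those 14 were called, 5 higher (counting both names of miR-129-3p) and 3 lower. Of all 424 miRNAs tested, 46.7% were called, 22.9% higher and 23.8% lower. For 9 of the 14 members, again counting both names of miR-129-3p, the libraries of the groups did not overlap. Of all miRNAs tested this held for 57.3% (30.2% higher and 27.1% lower in OIR P29). The median log2 fold of the members tested, with both names of miR-129-3p included, was 0.19, and that of all miRNAs -0.01. In whole retina, fewer cells of a type and less of the miRNA per cell cannot be told apart.

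miR-7b had the largest fold among the members tested. It had 41, 62 and 74 counts in OIR P29, against 13, 8 and 11 in OIR P14, and 16, 35 and 12 in sham P14. All 3 OIR P29 libraries lay above all 3 of OIR P14, while the range of sham P14 overlapped with that of OIR P14. The level was 4.02 ± 0.948 CPM in OIR P29 and 0.830 ± 0.191 CPM in OIR P14, a 4.73-fold rise (log2 fold 2.24 ± 0.28 SE, edgeR adjusted p = 0.000750). It had adjusted p from 2.38e-06 to 0.00800 over 15 alternative analyses.

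miR-7a-5p, which carries the same seed, was not called. It had 379, 415 and 544 counts in OIR P29, against 332, 356 and 334 in OIR P14 and 364, 440 and 341 in sham P14, with a log2 fold of 0.18 ± 0.12 SE at P29 (edgeR adjusted p = 0.240). The counts of miR-7b were 10.8%, 14.9% and 13.6% of those of miR-7a-5p in OIR P29, against 3.92%, 2.25% and 3.29% in OIR P14 and 4.40%, 7.95% and 3.52% in sham P14. The log2 ratio of miR-7b to miR-7a-5p was 2.03 higher in OIR P29 than in OIR P14, and the groups did not overlap (two-sided exact permutation test, p = 0.1, the smallest that 3 against 3 libraries can give; adjusted over 9 ratios, p = 0.225). How many mismatches the read assignment allowed is not stated in those sources, so with 1 base between them the split of reads between miR-7a-5p and miR-7b is uncertain.

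Of the 3p arms of the miR-7a copies, that of the chromosome 1 copy fell and that of the chromosome 17 copy was not called. miR-7a-2-3p had 49, 34 and 45 counts in OIR P29, against 70, 74 and 77 in OIR P14 and 79, 86 and 87 in sham P14. It fell to 2.94 ± 0.596 CPM in OIR P29, against 5.74 ± 0.306 CPM in OIR P14 (log2 fold -0.98 ± 0.19 SE, edgeR adjusted p = 0.00407). Every OIR P29 library was below every OIR P14 library, although the OIR P29 counts are low. miR-7a-1-3p, of the copy within Hnrnpk, had 300, 369 and 368 counts in OIR P29, against 234, 289 and 340 in OIR P14 and 233, 318 and 240 in sham P14. Its ranges overlapped in CPM and its log2 fold was 0.06 ± 0.14 SE (edgeR adjusted p = 0.756). Its count was 67.6% to 88.9% of that of miR-7a-5p in OIR P29, 70.5% to 102% in OIR P14 and 64.0% to 72.3% in sham P14. The count of miR-7a-2-3p was 9.21% to 16.3% of that of miR-7a-1-3p in OIR P29 and 22.6% to 29.9% in OIR P14, a difference in log2 ratio of -1.07 with no overlap (two-sided exact permutation p = 0.1, adjusted over 9 ratios p = 0.225).

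miR-129, which in rodent hippocampus represses the potassium channel Kv1.1, rose on both arms. miR-129-5p had 3410, 3466 and 3973 counts in OIR P29, against 1436, 1768 and 1919 in OIR P14 and 1802, 2336 and 1677 in sham P14. miR-129-3p had 3593, 4153 and 4678 counts in OIR P29, against 1211, 1499 and 2066 in OIR P14 and 1399, 2341 and 1212 in sham P14. On both arms each OIR P29 library was above every library of the other groups. miR-129-5p stood at 248 ± 8.92 CPM in OIR P29 and 133 ± 19.99 CPM in OIR P14, a 1.84-fold rise (log2 fold 0.88 ± 0.11 SE, edgeR adjusted p = 0.000798). miR-129-3p stood at 284 ± 22.0 CPM in OIR P29 and 124.1 ± 34.4 CPM in OIR P14, a 2.26-fold rise (log2 fold 1.18 ± 0.18 SE, edgeR adjusted p = 0.00156). The 3p arm was read more often than the 5p arm in all 3 OIR P29 libraries (1.05 to 1.198 times), in 1 of 3 OIR P14 libraries (0.843 to 1.08 times) and in 1 of 3 sham P14 libraries (0.723 to 1.002 times). This ratio overlapped between the groups (log2 difference 0.32, two-sided exact permutation p = 0.2, adjusted p = 0.36).

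miR-488-3p fell by about as much as miR-7a-2-3p, from far higher counts. It had 877, 978 and 1053 counts in OIR P29, against 1729, 1795 and 1784 in OIR P14 and 1333, 1564 and 1708 in sham P14. The replicates were close, and all OIR P29 libraries lay below all libraries at P14. The level was 66.6 ± 2.66 CPM in OIR P29 and 137.9 ± 3.71 CPM in OIR P14, 2.10 times lower (log2 fold -1.07 ± 0.08 SE, edgeR adjusted p = 6.86e-05). Its other arm, miR-488-5p, had 1, 2 and 3 counts in OIR P29, against 10, 13 and 2 in OIR P14 and 5, 4 and 5 in sham P14, and was left out by the filter. Without the filter edgeR gave miR-488-5p a log2 fold of -2.18 with adjusted p = 0.0457. In the authors' deposited table it was not called (log2 fold -1.75, false discovery rate 0.0780). Its OIR groups overlapped in CPM, with OIR P14 library 38 within the range of OIR P29.

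The arms of miR-124 gave log2 folds of opposite sign, and only the 5p arm was called. miR-124-3p, the guide arm, had 83559, 104971 and 107595 counts in OIR P29, against 57683, 61370 and 80965 in OIR P14 and 59026, 78050 and 53728 in sham P14. OIR P14 library 38 reached above the lowest OIR P29 library in CPM, so the groups overlapped. The level was 6772 ± 641 CPM in OIR P29 and 5196 ± 992 CPM in OIR P14 (log2 fold 0.36 ± 0.13 SE), and miR-124-3p was not called (edgeR adjusted p = 0.0520, between 0.00396 and 0.159 over 15 alternatives). It was called in 6 of the 15 alternatives, among them the fit without OIR P14 library 38 (log2 fold 0.52, edgeR adjusted p = 0.00396). DESeq2 (adjusted p = 0.0232), limma-voom (adjusted p = 0.0441) and the authors' deposited table (log2 fold 0.39, false discovery rate 0.0480) also called it.

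miR-124-5p had 880, 956 and 996 counts in OIR P29, against 1146, 1138 and 1273 in OIR P14 and 913, 1245 and 1229 in sham P14. It fell to 64.9 ± 1.29 CPM in OIR P29, against 92.4 ± 6.11 CPM in OIR P14 (log2 fold -0.53 ± 0.08 SE, edgeR adjusted p = 0.00156). Under scaling by library totals only, its log2 fold was -0.27 and it was not called (edgeR adjusted p = 0.123). The 3p arm had 94.95, 109.8 and 108 times the count of the 5p arm in OIR P29, against 50.3, 53.9 and 63.6 times in OIR P14 and 64.7, 62.7 and 43.7 times in sham P14. This ratio needs no scaling between libraries, and its log2 value was 0.90 higher in OIR P29 than in OIR P14 with no overlap (two-sided exact permutation p = 0.1, adjusted over 9 ratios p = 0.225). miR-124 is made from several loci, and the 5p row does not separate them.

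**Figure D2:**
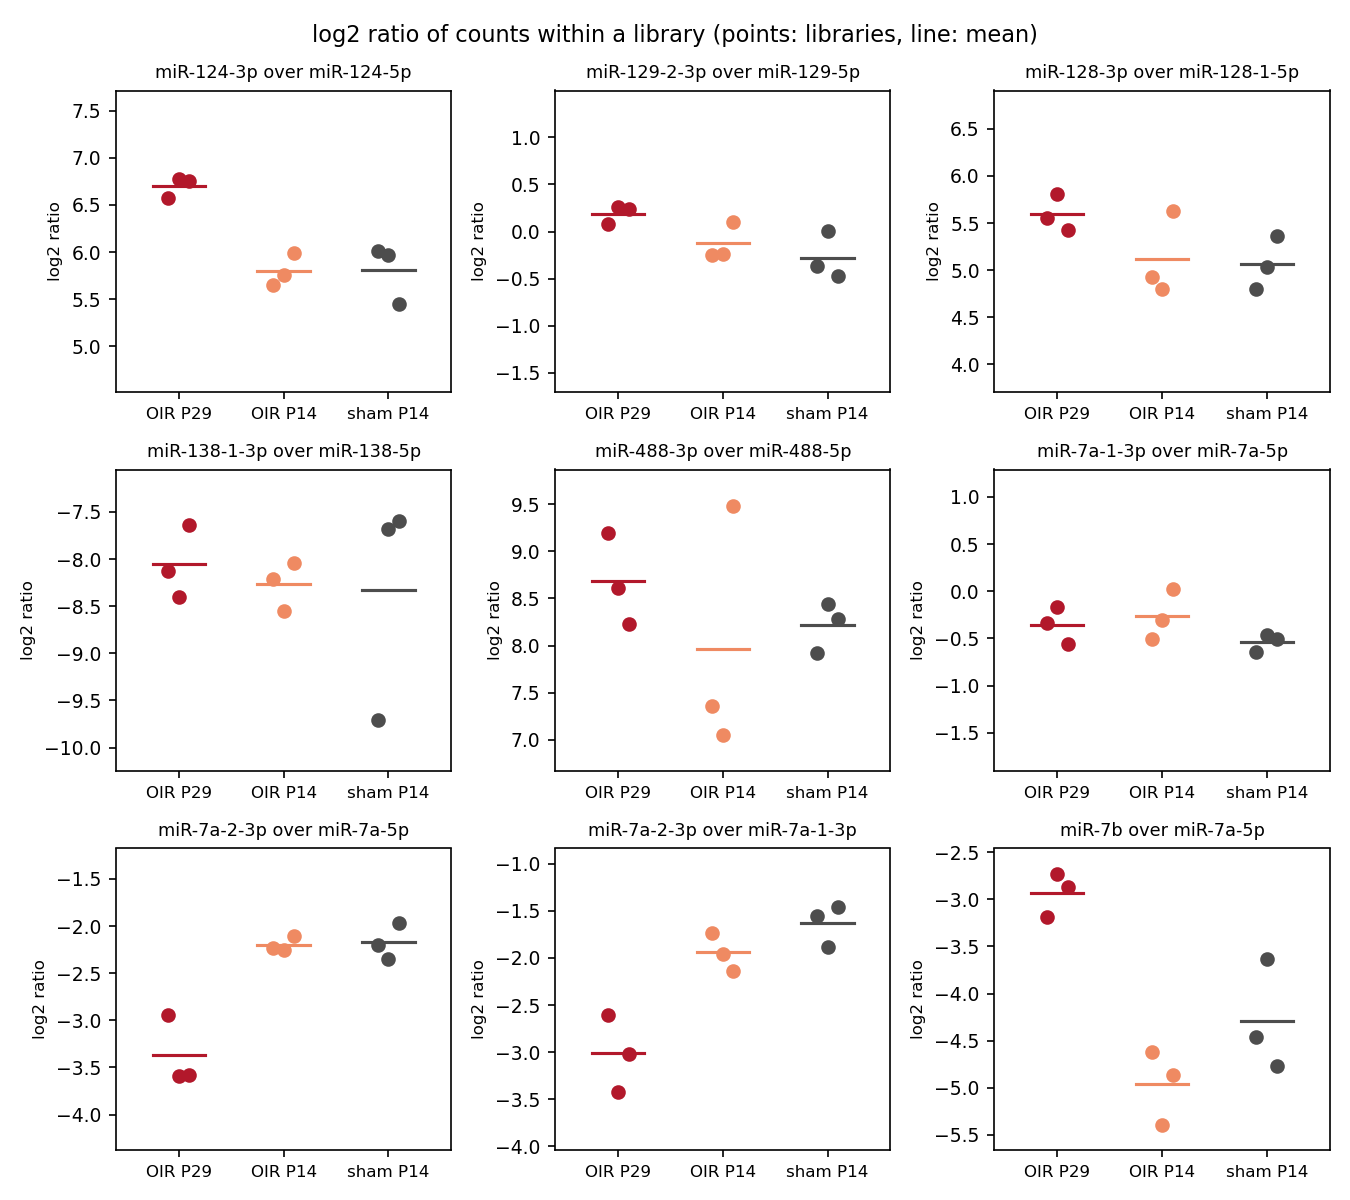
log2 ratio of the counts of 2 mature miRNAs within a library for the 9 ratios tested, with points for libraries and lines for group means. OIR P29 is apart from OIR P14 for the miR-124 arms, both ratios of miR-7a-2-3p and miR-7b over miR-7a-5p, and overlaps with it for the other 5 ratios.

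miR-137-3p, a miRNA of maturing neurons, had 47, 55 and 74 counts in OIR P29, against 22, 29 and 41 in OIR P14 and 32, 64 and 30 in sham P14. The OIR groups did not overlap in CPM, while sham P14 overlapped with both. The level was 4.01 ± 0.720 CPM in OIR P29 and 2.39 ± 0.758 CPM in OIR P14, a 1.66-fold rise (log2 fold 0.73 ± 0.25 SE, edgeR adjusted p = 0.0492). This call is the least stable of the 8: it was kept in 5 of 15 alternatives, with adjusted p from 0.0221 to 0.134. It was lost without any 1 of the OIR P29 libraries 20, 21 and 47 or the OIR P14 libraries 11 and 12 (edgeR adjusted p from 0.0583 to 0.134). DESeq2 (adjusted p = 0.0929), edgeR with no filter (adjusted p = 0.0521) and the authors' deposited table (false discovery rate 0.0601) did not call it either.

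Neither arm of miR-128 was called, nor was miR-138-5p, while miR-138-1-3p was not tested. miR-128-3p had 1386, 1262 and 1351 counts in OIR P29, against 1021, 990 and 1010 in OIR P14 and 1019, 1065 and 1007 in sham P14. Its OIR P29 libraries lay above those of OIR P14, but the difference was small (log2 fold 0.21 ± 0.09 SE, 95% interval -0.01 to 0.42, edgeR adjusted p = 0.102). It was called without OIR P29 library 47 (log2 fold 0.30, edgeR adjusted p = 0.0495). miR-128-1-5p had 22 to 31 counts in OIR P29, 20 to 35 in OIR P14 and 24 to 36 in sham P14, with a log2 fold at P29 of -0.30 ± 0.27 SE (edgeR adjusted p = 0.395). The 3p arm had 43.6 to 57.4 times its count in OIR P29 and 28.3 to 50.5 times in OIR P14.

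miR-138-5p had 2368, 2532 and 2295 counts in OIR P29, against 2231, 2060 and 1708 in OIR P14 and 2090, 1956 and 2026 in sham P14. The groups overlapped in CPM and the log2 fold was 0.06 ± 0.13 SE, with a 95% interval from -0.23 to 0.35 (edgeR adjusted p = 0.735). The 3p arm of its copy 1, miR-138-1-3p, had 7 to 11 counts in OIR P29, 5 to 7 in OIR P14 and 2 to 10 in sham P14 and was left out by the filter.

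**Figure D3:**
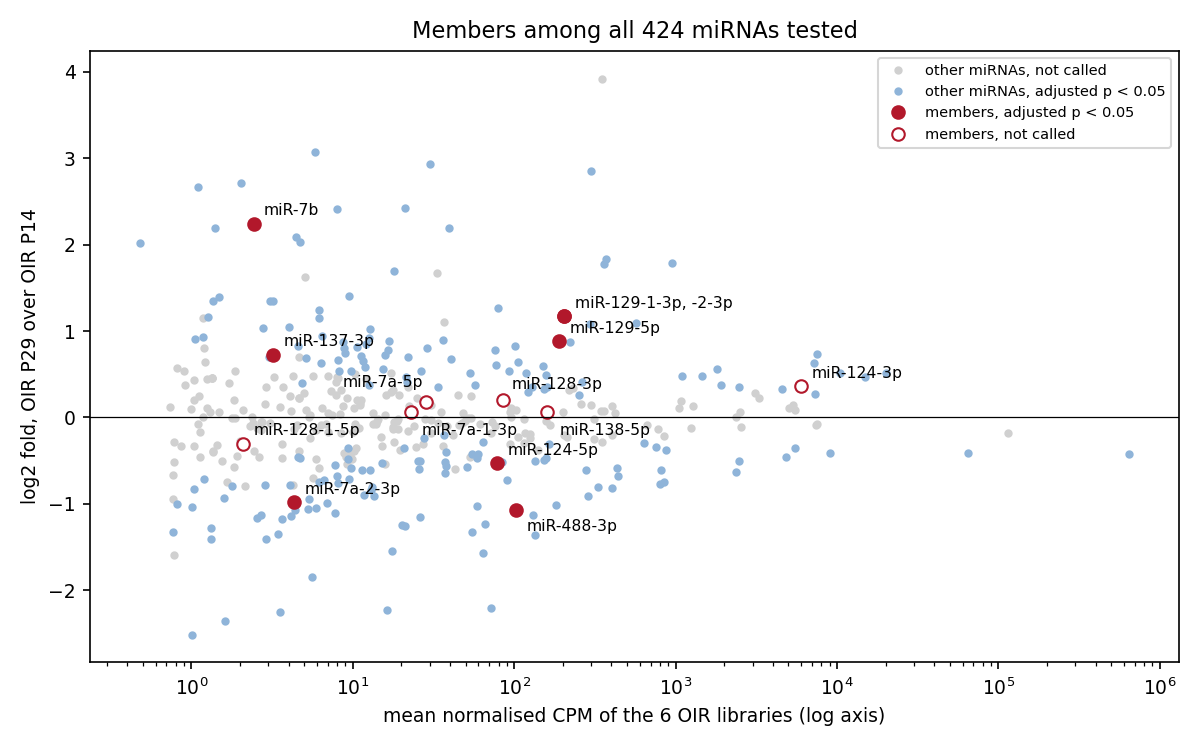
log2 fold of OIR P29 over OIR P14 against the mean normalised CPM of the 6 OIR libraries (log axis) for all miRNAs tested, with members as large red points, filled where called. Called members lie on both sides of 0, from miR-7b at 2.24 to miR-488-3p at -1.07, and the most abundant, miR-124-3p, is not called at 0.36.

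OIR P14 was set against sham P14, which has the same age. edgeR called 0 of the 14 members tested, where 1.69% of all 415 miRNAs tested were called, each of them lower, and DESeq2 and limma-voom also called 0 members. At an unadjusted p under 0.05 there was 1 member, miR-7b. It had 13, 8 and 11 counts in OIR P14, against 16, 35 and 12 in sham P14, so that the groups overlapped and sham library 27 stood above the others. Its log2 fold was -0.99 ± 0.40 SE (95% interval -1.89 to -0.08, edgeR adjusted p = 0.419) and without sham library 27 it was -0.48. Both comparisons use the OIR P14 libraries, so a low count of miR-7b in them enters both of its folds.

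The other members gave log2 folds between -0.47 for miR-137-3p and 0.17 for miR-488-3p at P14. That of miR-137-3p moved with single libraries, to -0.11 without sham library 27, -0.27 without OIR P14 library 11 and -0.75 without OIR P14 library 38. For some of them, the 95% intervals limit how large the difference could be. The 95% interval of the log2 fold was -0.30 to 0.39 for miR-124-3p, -0.25 to 0.34 for miR-124-5p, -0.29 to 0.16 for miR-128-3p and -0.35 to 0.24 for miR-138-5p. For miR-129-5p (log2 fold -0.21 ± 0.14 SE) it was -0.52 to 0.10, and for miR-7a-5p (-0.19 ± 0.11 SE) -0.45 to 0.06. The groups did not overlap for 2 of the 14, miR-128-3p and miR-7a-2-3p, both lower in OIR P14, against 15.2% of all miRNAs tested (3.86% higher and 11.3% lower). None of the 9 ratios separated OIR P14 from sham P14, with exact permutation p from 0.2 to 1.

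**Figure D4:**
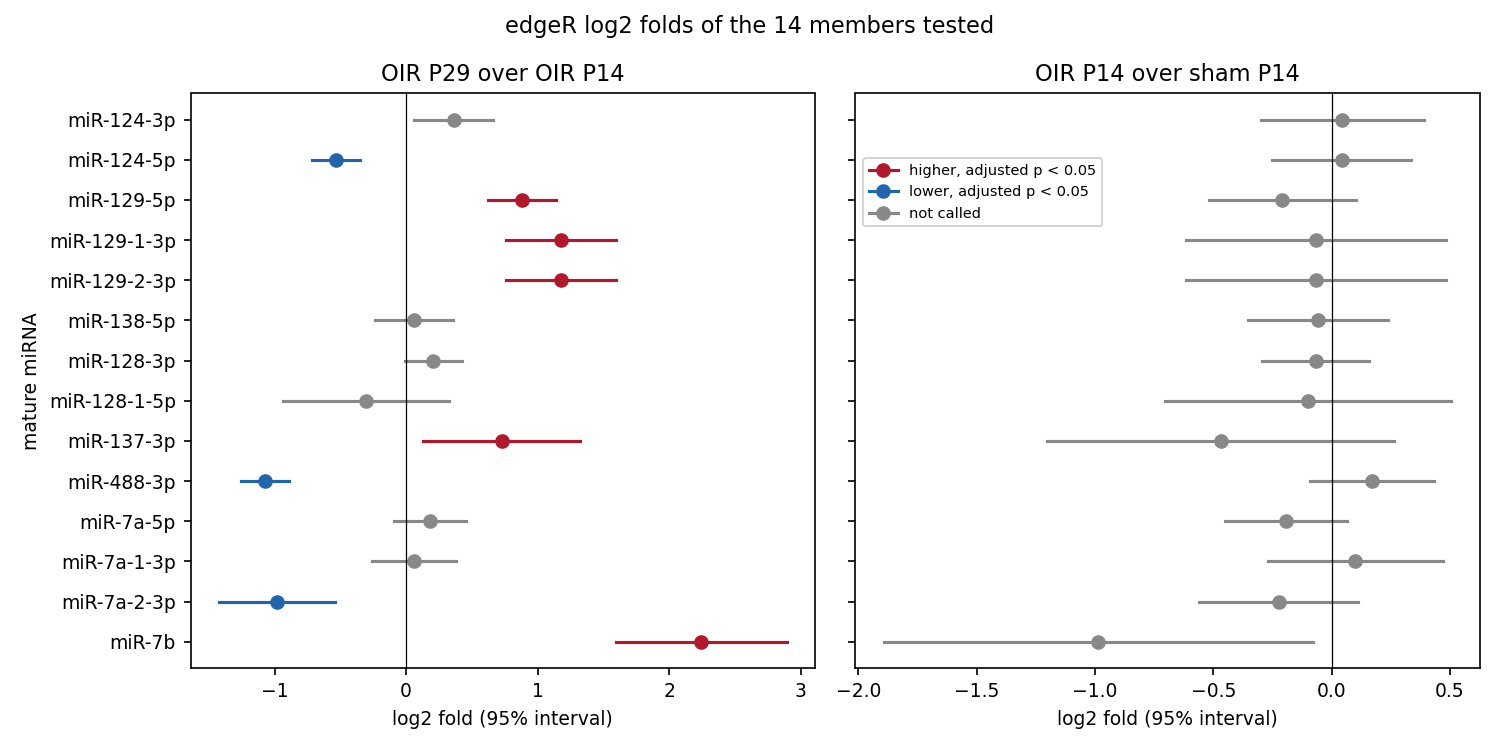
edgeR log2 folds of the 14 members tested with 95% intervals, OIR P29 over OIR P14 on the left and OIR P14 over sham P14 on the right. On the left 5 are called higher and 3 lower, and on the right none is called, with miR-7b at -0.99 the farthest from 0.

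Which library was highest or lowest in its group was counted over the 14 members tested, with both names of miR-129-3p included and no test. By CPM, OIR P14 library 38 was the highest of its group for 8 members and the lowest for 2, and library 11 was the lowest for 10. Sham library 27 was the highest of its group for 8 and library 51 the lowest for 9, and OIR P29 library 47 was the highest for 7 and library 20 the lowest for 9. In both groups at P14 miR-129-3p had the widest spread among the members above 100 CPM, with an SD of 27.7% of the mean in OIR P14 and 30.2% in sham P14, while miR-488-3p had 2.69% and 9.97%. In OIR P29 the SD of miR-129-3p was 7.76% of the mean, below the 9.46% of miR-124-3p. Without libraries 38 and 47 together, a choice made after seeing the data, 6 members were called higher and 3 lower at P29, the added one being miR-124-3p (log2 fold 0.48, edgeR adjusted p = 0.0117).

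Marker miRNAs of other cell types moved between the same groups. At P29 the endothelial markers miR-126a-3p and miR-126a-5p (2 of 2), the mural markers miR-143-3p and both arms of miR-145 (3 of 3) and the pigment epithelium markers miR-204-5p and miR-211-5p (2 of 2) were called higher. Their summed levels were 480 to 535 CPM in OIR P29 against 165 to 304 in OIR P14 for the endothelial list, 1478 to 1545 against 298 to 605 for the mural list, and 31154 to 35605 against 18390 to 23989 for the pigment epithelium list. In sham P14 these sums were 630 to 728, 1159 to 1293 and 12362 to 19708 CPM, and in OIR P14 against sham P14 the endothelial list (2 of 2) and the mural list (2 of 3) were called lower, as were 1 of 2 erythroid markers tested and 1 of 3 leukocyte markers tested. At P29, 3 of 4 erythroid markers, 1 of 4 leukocyte markers and 1 of 2 oligodendrocyte markers were called higher. Of the 3 photoreceptor markers, 2 were called lower and 1 higher at P29, with summed levels of 608874 to 640745 CPM in OIR P29 and 720036 to 886389 CPM in OIR P14. In sham P14 this sum was 674962 to 736675 CPM. TMM scaling enters these sums, so they are not shares of a library. As a share of raw counts, miR-182 alone took 59.3% to 61.7% in OIR P29, 65.1% to 68.1% in OIR P14 and 62.5% to 64.3% in sham P14. The 2 lens and cornea markers summed to 1934 CPM in OIR P29 library 47, against 15.7 and 44.7 CPM in the other OIR P29 libraries and 28.5 to 62.3 CPM in OIR P14. In sham P14 they summed to 144 CPM in library 51, against 22.8 and 28.7 CPM in the other sham libraries. No marker with a row was at 0 in all libraries, and the part of these cells in the members' results was not tested.

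The patterns most like those of 3 members were read from log2 CPM over the 9 libraries, which share their groups and depth, so these correlations are descriptions without a test. miR-124-3p was followed most closely by miR-29c-5p (Pearson r = 0.970, Spearman rho = 0.933), miR-99a-5p (0.965 and 0.933) and miR-326-3p (0.949 and 0.933). For miR-7b they were miR-384-5p (r = 0.966, rho = 0.917), miR-22-5p (0.960 and 0.9) and miR-764-3p (0.939 and 0.917). miR-7b was taken because it had the largest P29 fold of the called members. A search for the highest r therefore favours miRNAs that are also high in OIR P29. miR-764-3p averaged only 0.777 CPM in OIR P29. Its means of 0.182 CPM in OIR P14 and 0.368 CPM in sham P14 were at or near the limit that 3 counts set. That limit was 0.197 to 0.254 CPM, without TMM scaling. The likeness of miR-764-3p thus rests on few reads, and it could pass the filter on low counts only through OIR P29, where it is high. For miR-7a-5p they were weaker, miR-145-3p (r = 0.825, rho = 0.9), miR-139-5p (0.788 and 0.75) and miR-34a-5p (0.740 and 0.683).

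Other miRNAs known from neurons were taken as a list of 26 names, of which 25 had rows, 42 in all. The list includes miR-219a-5p and miR-338-3p, which are also the 2 oligodendrocyte markers above, 1 of them called higher at P29. At P29, 12 of the 38 rows tested rose and 7 fell, and 19 were not called. That is 50% called, against 46.7% of all miRNAs tested, and the median log2 fold was 0.14, against -0.01 over all. Without miR-132 and miR-212, 8 of 34 rows rose and 7 fell (44.1% called), with a median log2 fold of 0.05. Those with the smallest p were, among the higher, miR-132-3p and miR-132-5p, which neuronal activity induces, and miR-212-3p from the same gene cluster, with log2 folds of 2.20 ± 0.09, 2.08 ± 0.18 and 2.42 ± 0.18 SE (edgeR adjusted p from 4.46e-06 to 0.000119). Among the lower they were miR-34c-5p (log2 fold -1.03 ± 0.10 SE), miR-9a-5p (-0.41 ± 0.07) and miR-34b-5p (-1.18 ± 0.20), with edgeR adjusted p from 0.000217 to 0.00247. Between OIR P14 and sham P14, 1 of 37 rows tested fell, miR-1224 (log2 fold -0.84 ± 0.15 SE, edgeR adjusted p = 0.0241), and 0 rose. This is 2.70% of the rows, near the 1.69% called among all miRNAs tested.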

How the data were processed

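Dissected retinas were sequenced as small RNA, single-end, per the labels' protocols. The authors deposited 2 tables of raw read counts per mature miRNA with a log2 fold and a false discovery rate (an adjusted p-value) for each comparison, per the file headers. limma is named per the submitters' processing notes. Neither label nor header names the aligner, the counter, the build or the annotation used. Of 12 library columns, OIR P14 stands in both tables (1395 of 1395 counts identical), leaving 9 libraries. Columns carry codes, so groups were taken from the tables in which a code stands: codes in both tables are OIR P14. The labels' replicate numbers are not tied to codes.

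edgeR 4.0.16 in R 4.3.3 was used with TMM factors, filterByExpr (minimum count 10, minimum total 15), the quasi-likelihood F test and Benjamini-Hochberg adjustment over all miRNAs tested, and was checked on simulated data. The filter left out 50 miRNAs at P14 and 41 at P29. SEs are the log2 fold over the square root of F. Ratios took a pseudocount of 0.5 on each count and a two-sided exact permutation test. DESeq2 1.42.0, limma 3.58.1 (voom), other scalings and left-out libraries were alternatives. No replicate pair agreed within sampling noise (chi-square statistics were 77.4 to 229 times their degrees of freedom). Nothing says that replicates came from separate animals, so p-values cover only the spread of these libraries, which may be technical. A count of 0 would allow up to 0.197 to 0.254 CPM (3 counts of the total), for counting error only. All rows that match the names were described. Members, lists and the rule for named miRNAs were chosen with earlier results of these data known. Sequences are from RefSeq GRCr8.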

Additional observations from a re-analysis of the deposited data

How the results depend on the processing

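The members called at P29 numbered 4 to 6 higher and 3 lower when 1 library was left out, and 9 higher and 2 lower with libraries scaled on totals alone. Under that scaling the median over all miRNAs at P29 was a log2 fold of 0.25, against -0.01, and the calls over all miRNAs were 148 higher and 53 lower, against 97 and 101. It added miR-124-3p, miR-128-3p, miR-138-5p and miR-7a-5p and lost miR-124-5p. At P14 that median was -0.21, against -0.03. miR-7b, miR-129-5p, both miR-129-3p names, miR-488-3p and miR-7a-2-3p kept their calls and directions in all 15 alternatives at P29. With no filter 4 members were higher and 4 lower. At P14, 0 members were called under any alternative.

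No paired analysis was possible because the columns carry none of the labels' replicate numbers.

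Some small folds changed sign. At P14 with totals alone they were -0.12 for miR-124-3p, -0.13 for miR-124-5p, -0.0064 for miR-488-3p and -0.0697 for miR-7a-1-3p, and with totals without miR-182 -0.0031 for miR-124-3p and -0.0054 for miR-124-5p. Leaving out 1 library at P14 gave -0.13 to 0.15 for miR-124-3p, -0.0440 to 0.13 for miR-124-5p, -0.24 to 0.10 for miR-128-1-5p, -0.31 to 0.19 for both miR-129-3p names, -0.14 to 0.0366 for miR-138-5p and -0.0495 to 0.24 for miR-7a-1-3p. At P29 it gave -0.0459 to 0.19 for miR-138-5p and -0.0306 to 0.19 for miR-7a-1-3p. Log2 ratio differences without 1 library at P14 ran from -0.19 to 0.0890 for the miR-124 arms, -0.20 to 0.21 for miR-128, -0.63 to 0.43 for miR-138, -1.005 to 0.21 for miR-488 and -0.12 to 0.0706 for miR-7a-2-3p over miR-7a-5p. At P29 they ran from -0.22 to 0.0456 for miR-7a-1-3p over miR-7a-5p. A pseudocount of 5 gave -0.0260 for miR-138 at P14 and -0.0380 for miR-488 at P29. The 4 ratios that separated OIR P29 from OIR P14 kept their direction in each of these settings. The cause of these changes was not tested. Low counts limit miR-7b, miR-137-3p, miR-7a-2-3p and the arms left out by the filter.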
